A study of Rattus norvegicus with 22 samples.

Results

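The question examined here is whether the cell type makeup of the rat kidney differed between rats given deoxycorticosterone acetate (DOCA) with spironolactone and rats given DOCA with vehicle. Libraries were chosen by the treatment that the deposited annotation gives each nucleus. The choice took 10 of the 22 single-nucleus RNA-Seq (snRNA-Seq) libraries, 5 per treatment, and 123871 of 310282 nuclei. snRNA-Seq reads the transcripts of single nuclei that are tagged with a barcode in a droplet, and the authors assigned each nucleus of whole kidney to 1 of 16 cell types. Both groups were Sprague-Dawley rats that had 1 kidney removed, received DOCA at 50 mg/kg by weekly subcutaneous injection and drank salt water. The DOCA group was gavaged daily with vehicle, and the DOCA plus spironolactone group received spironolactone at 50 mg/kg per day. The control rats, whose values are given only as background, were sham operated, were injected with sesame oil without DOCA and drank tap water. All control samples were taken at 6 weeks. The 2 groups compared here share uninephrectomy, DOCA and salt, and differ in the drug. In each of them 4 samples were taken at 6 weeks and 1 at 3 weeks.

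Mineralocorticoids act through the mineralocorticoid receptor, a nuclear receptor that raises sodium uptake in the aldosterone-sensitive distal nephron, chiefly in principal cells. DOCA is a mineralocorticoid, and with salt and a single kidney it gives a model of hypertension and kidney damage. Spironolactone is a steroidal antagonist of this receptor. Kidney damage of this kind is known for injured and dividing tubule cells, for infiltrating leukocytes and for matrix-producing stromal cells, all of which have a label in the annotation.

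No library name was matched to a sample, a rat or a time point, and it is not given whether each library came from a separate rat. RK6.1 and RK6.1.New, both of the DOCA plus spironolactone group, share a number, and whether they come from the same animal is not known. The p-values therefore measure only the spread between libraries, which may be technical. With 5 libraries against 5 the smallest two-sided p that an exact permutation test over all arrangements allows is 0.00794. If 1 type of 16 reached that value alone, its Benjamini-Hochberg adjusted p would be 0.127. Since no gene values were analysed here, the deposited type names could not be checked against marker genes.

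The DOCA libraries held 1774 to 15167 nuclei (median 8716) and the DOCA plus spironolactone libraries 759 to 33683 (median 13610). RK6.1.New alone held 44.0% of the nuclei of its group. Pooled shares therefore follow that library, and the mean that weights each library equally is the main value throughout. A share of a composition also moves when another type becomes more or less frequent, and numbers of cells per kidney were not measured. Each group had 1 library with an MO tag in its name (RK9.1.Old.MO and RK5.1.Old.MO) and 1 with a New tag (RK2.2.New and RK6.1.New). These are called tagged, and the other 3 libraries of each group, whose names carry no such tag, untagged. The meaning of the tags is not given. The study used a Multiome kit for some samples, but no label names the library kit of these 10 libraries, and MO was not read as a kit here.

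No cell type passed the test of a difference between the groups when all nuclei were the denominator. By the exact permutation test, 0 of 16 types had an unadjusted p under 0.05 (0% called), and 0 of 16 passed after adjustment. The smallest p was 0.0714 for PST, with an adjusted p of 0.698. In none of the 16 types did the 5 libraries of one group lie apart from the 5 of the other. Mean shares were higher with spironolactone for 6 types and lower for 10. For 4 of the 16 (Endo, MyoFib, Mono and Lymphocyte) the pooled nuclei gave the opposite direction. The spread between libraries exceeded the counting error of a share in every type. It was between 2.32 (IC_A) and 12.9 (PCT) times the counting error in the DOCA group. In the DOCA plus spironolactone group it was between 1.42 (Prolif_Tubule) and 36.8 (Podo) times the counting error.

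**Figure D1:**
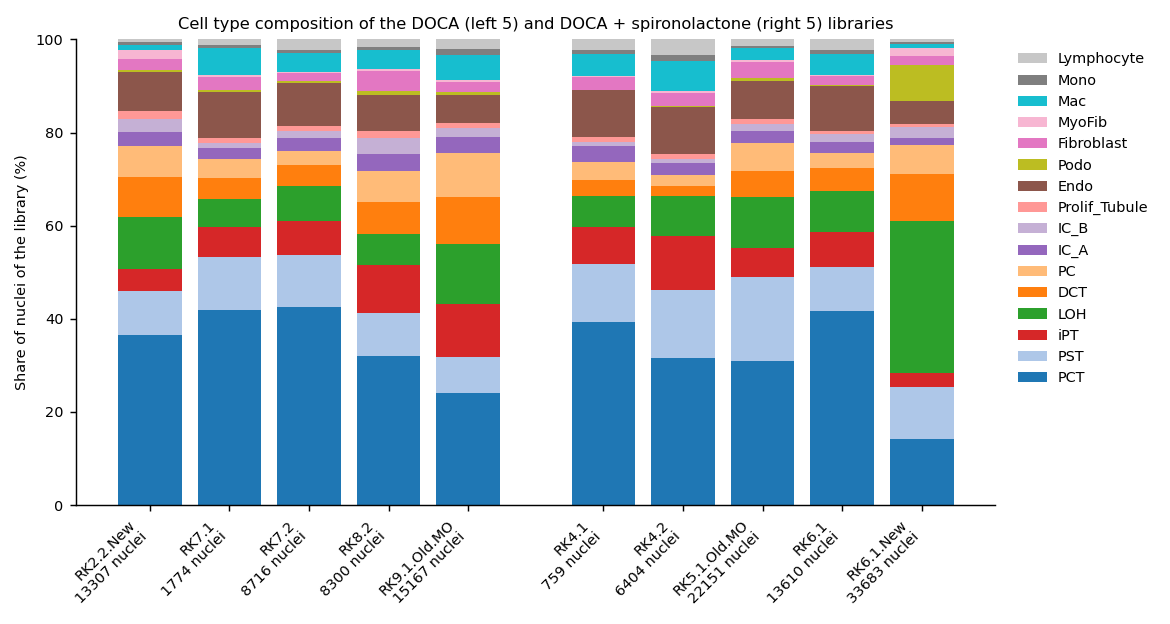
Each bar is 1 library, with its number of nuclei under its name, and the colours give the share of its nuclei (%) in each of the 16 types. RK6.1.New stands apart with 32.7% LOH and 7.68% Podo nuclei.

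The loop of Henle (LOH), whose thick limb reabsorbs sodium chloride, was the type with the largest difference between the equal-weight means. LOH nuclei made up 11.2% of RK2.2.New, 5.92% of RK7.1, 7.64% of RK7.2, 6.76% of RK8.2 and 12.9% of RK9.1.Old.MO in the DOCA group. They made up 6.59% of RK4.1, 8.62% of RK4.2, 10.97% of RK5.1.Old.MO, 8.88% of RK6.1 and 32.7% of RK6.1.New in the DOCA plus spironolactone group. Of the latter libraries, 4 lay inside the range of the DOCA libraries, and RK6.1.New lay far above it. The means were 13.6% ± 10.8 (SD, n = 5) with spironolactone and 8.87% ± 3.00 (SD, n = 5) with DOCA alone. The difference of 4.68 percentage points (95% interval from the permutation test -3.97 to 15.5) did not pass (exact p = 0.516). Without RK6.1.New it was -0.109 points (exact p = 0.952). The mean of the control libraries was 15.9%, with a range of 7.99% to 23.8%. All shares below are therefore given with all nuclei and, where it matters, with LOH nuclei set aside.

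The proximal tubule reabsorbs most of the filtered load, and its convoluted segment (PCT) was the largest type in every DOCA library. The PCT share was 36.6% in RK2.2.New, 41.9% in RK7.1, 42.5% in RK7.2, 32.0% in RK8.2 and 24.0% in RK9.1.Old.MO. With spironolactone it was 39.3% in RK4.1, 31.7% in RK4.2, 30.9% in RK5.1.Old.MO, 41.7% in RK6.1 and 14.3% in RK6.1.New. Only RK6.1.New lay below the DOCA libraries, and none lay above them. The difference of means was -3.84 points (-17.7 to 8.66, exact p = 0.540), from 35.4% ± 7.66 with DOCA alone to 31.6% ± 10.7 with spironolactone (SD, n = 5 each). Without RK6.1.New the difference was 0.481 points (exact p = 0.929). Among nuclei other than LOH it was -3.05 points (-15.7 to 9.30, exact p = 0.627).

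The straight segment of the proximal tubule (PST), which lies in the outer medulla and medullary rays, came closest to a difference. PST nuclei made up 9.37% of RK2.2.New, 11.3% of RK7.1, 11.2% of RK7.2, 9.34% of RK8.2 and 7.81% of RK9.1.Old.MO. With spironolactone they made up 12.5% of RK4.1, 14.6% of RK4.2, 18.1% of RK5.1.Old.MO, 9.50% of RK6.1 and 11.2% of RK6.1.New. All 5 spironolactone libraries lay above the median of the DOCA libraries and 3 lay above their maximum. The means were 13.2% ± 3.31 and 9.82% ± 1.48 (SD, n = 5 each), 1.34 times as high with spironolactone. The difference of 3.35 points (-0.0808 to 6.98) did not pass (exact p = 0.0714, adjusted p = 0.698). Leaving out 1 library gave differences of 2.13 (without RK5.1.Old.MO) to 4.27 points. The unadjusted p was under 0.05 without RK6.1 (4.27 points, exact p = 0.0238) and without RK6.1.New (3.85 points, exact p = 0.0397). The difference was 1.63 points without the MO-tagged libraries (exact p = 0.257) and 1.57 points between the untagged libraries (exact p = 0.400). The control mean was 12.3%, with a range of 8.92% to 16.7%.

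With LOH nuclei set aside, PST was the single type of 15 with an unadjusted exact p under 0.05 (6.67% called), and 0 of 15 passed after adjustment. Of nuclei other than LOH, PST made up 10.6% in RK2.2.New, 12.04% in RK7.1, 12.2% in RK7.2, 10.0% in RK8.2 and 8.96% in RK9.1.Old.MO. With spironolactone the share was 13.4% in RK4.1, 15.99% in RK4.2, 20.3% in RK5.1.Old.MO, 10.4% in RK6.1 and 16.6% in RK6.1.New. Thus 4 of the 5 spironolactone libraries lay above all DOCA libraries, and RK6.1 lay within their range. The means were 15.3% ± 3.69 and 10.7% ± 1.37 (SD, n = 5 each), a difference of 4.59 points (0.549 to 8.65, exact p = 0.0397, adjusted p = 0.595). When libraries were permuted only within the tagged and the untagged ones, the exact p was 0.0667. The difference kept its sign without any 1 library (3.35 to 5.82 points). It lost the unadjusted call without RK5.1.Old.MO (3.35 points), and also without RK2.2.New, RK8.2 or RK9.1.Old.MO, with the highest exact p at 0.0794. Without both MO-tagged libraries it was 2.91 points (exact p = 0.143). Between the 3 libraries per group with no Old or New tag it was 1.86 points (exact p = 0.400). Between the 2 tagged libraries per group it was 8.68 points with no overlap, in a design whose smallest exact p is 0.333. Of the 15 types, IC_A, Podo and Fibroblast did not overlap there either.

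**Figure D2:**
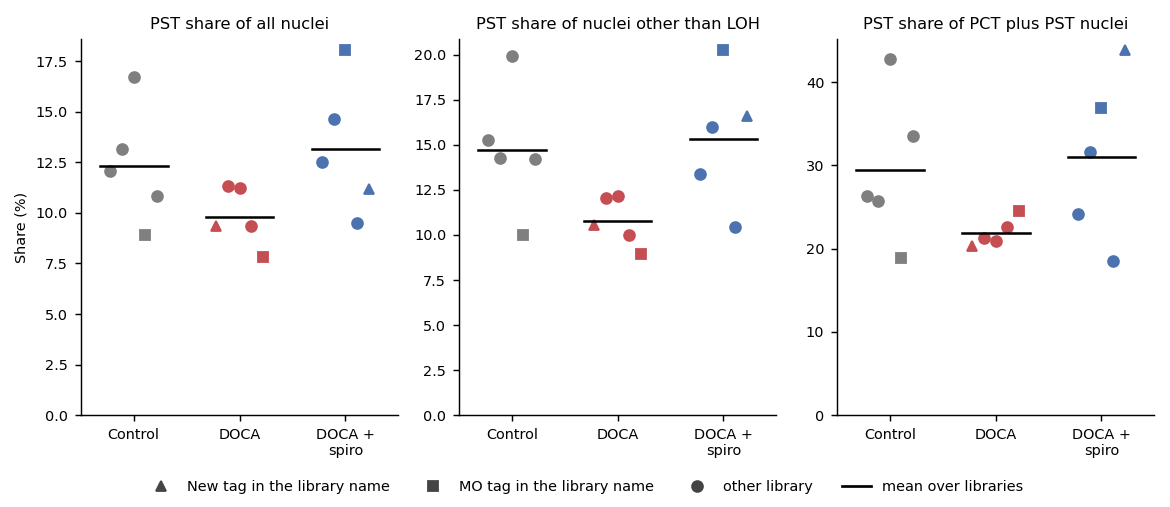
PST share (%) of all nuclei, of nuclei other than LOH, and of PCT plus PST nuclei in each library, with a line at the mean of 5 libraries. In the right panel the 5 DOCA libraries stay between 20.4% and 24.5%, while the spironolactone libraries run from 18.6% to 43.9%.

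In the PST part of PCT plus PST nuclei the DOCA libraries were close to each other and the spironolactone libraries were not. PST made up 20.4% of PCT plus PST nuclei in RK2.2.New, 21.3% in RK7.1, 20.9% in RK7.2, 22.6% in RK8.2 and 24.5% in RK9.1.Old.MO. With spironolactone the ratio was 24.2% in RK4.1, 31.6% in RK4.2, 36.8% in RK5.1.Old.MO, 18.6% in RK6.1 and 43.9% in RK6.1.New. It was above all DOCA libraries in 3 of 5 and below all of them in RK6.1. The means were 31.0% ± 10.0 with spironolactone and 21.9% ± 1.65 with DOCA alone (SD, n = 5 each). The difference of 9.07 points (-1.82 to 19.5) did not pass (exact p = 0.111). Without RK6.1 it was 12.2 points (exact p = 0.0159), without RK6.1.New it was 5.85 points (exact p = 0.183), and between the untagged libraries it was 3.17 points (exact p = 0.600). The control mean was 29.4%, with a range of 18.8% to 42.8%.

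The share of injured proximal tubule (iPT) nuclei, the type the annotation sets apart from PCT and PST, did not pass the test. They made up 4.64% of RK2.2.New, 6.54% of RK7.1, 7.29% of RK7.2, 10.1% of RK8.2 and 11.4% of RK9.1.Old.MO with DOCA alone. With spironolactone they made up 8.04% of RK4.1, 11.5% of RK4.2, 6.18% of RK5.1.Old.MO, 7.44% of RK6.1 and 2.92% of RK6.1.New. The lowest and the highest of the 10 libraries were both in the spironolactone group. In RK4.1, where 61 nuclei were iPT, the exact (Clopper-Pearson) 95% interval was 6.20% to 10.2%, which covers counting error only. The means were 7.22% ± 3.11 and 7.998% ± 2.74 (SD, n = 5 each), a difference of -0.779 points (-5.24 to 3.81, exact p = 0.675). The sign turned without RK6.1.New (0.295 points) and without RK9.1.Old.MO (0.0777 points). The pooled shares were 5.44% and 8.34%, a difference of -2.90 points with an exact p of 0.413 when whole libraries were permuted. Control libraries held 2.79% to 5.95% iPT nuclei.

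Nor did iPT nuclei pass as a part of the proximal tubule. Of PCT, PST and iPT nuclei together, iPT made up 13.5% ± 3.79 with spironolactone and 15.6% ± 7.23 with DOCA alone (SD, n = 5 each, exact p = 0.659). Without RK9.1.Old.MO, where the ratio was 26.4%, the difference changed from -2.11 to 0.591 points. Relative to PST alone, iPT made up 34.7% ± 10.9 of PST plus iPT nuclei with spironolactone and 44.1% ± 11.1 with DOCA alone (exact p = 0.183). This difference of -9.41 points stayed negative without any 1 library, and was -5.58 points without RK9.1.Old.MO. Between the untagged libraries it was -0.260 points. The proximal tubule as a whole took 52.0% ± 13.3 and 53.2% ± 7.29 of nuclei (SD, n = 5 each, exact p = 0.905), and without RK6.1.New the difference changed from -1.27 to 4.63 points.

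**Figure D3:**
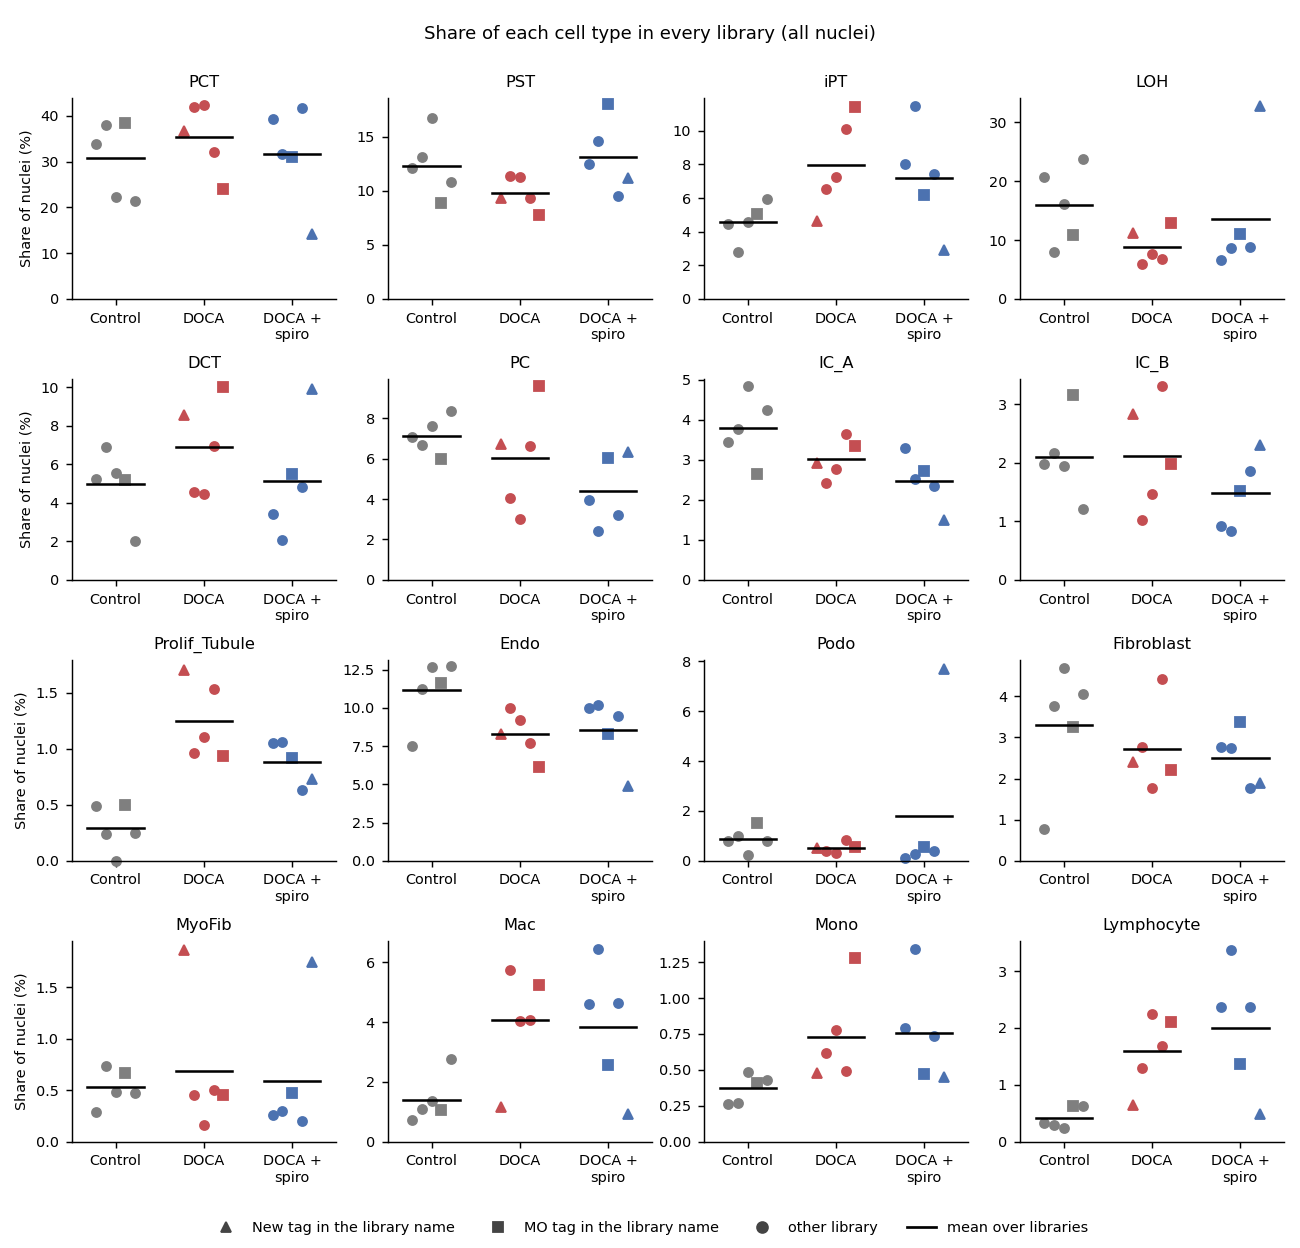
Share of all nuclei (%) in every library for each of the 16 types, with a line at the mean of each group's 5 libraries, triangles for New-tagged and squares for MO-tagged libraries. The DOCA and DOCA + spironolactone points overlap in every panel, and the control libraries are shown as background.

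The distal nephron carries the mineralocorticoid response, and the means of all 4 of its types were lower with spironolactone, none past the test. Principal cells (PC), which take up sodium through the epithelial sodium channel, made up 6.73% of RK2.2.New, 4.06% of RK7.1, 3.03% of RK7.2, 6.64% of RK8.2 and 9.57% of RK9.1.Old.MO. With spironolactone they made up 3.95% of RK4.1, 2.42% of RK4.2, 6.04% of RK5.1.Old.MO, 3.23% of RK6.1 and 6.31% of RK6.1.New. With all nuclei, no spironolactone library exceeded the DOCA median. The means were 4.39% ± 1.72 and 6.01% ± 2.56 (SD, n = 5 each), a difference of -1.61 points (-4.96 to 1.59, exact p = 0.230). The difference was negative without any 1 library (-2.36 to -0.722 points), and nearest to 0 without RK9.1.Old.MO. Among nuclei other than LOH it was -1.34 points (exact p = 0.484), and RK6.1.New (9.39%) lay above the DOCA median of 7.12%. The control mean was 7.14%.

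The distal convoluted tubule (DCT), the site of the thiazide-sensitive cotransporter, had mean shares of 5.15% ± 2.97 with spironolactone and 6.91% ± 2.44 with DOCA alone (SD, n = 5 each). The difference was -1.77 points (-5.74 to 2.15, exact p = 0.341), and 2 spironolactone libraries lay below all DOCA libraries. With LOH nuclei set aside it was -1.23 points (exact p = 0.651), and 0.0335 points with pooled nuclei. RK6.1.New, with 14.7% DCT among nuclei other than LOH, then lay above the DOCA maximum of 11.5%. The acid-secreting intercalated cells (IC_A) had means of 2.48% ± 0.652 and 3.03% ± 0.483, a difference of -0.548 points (-1.39 to 0.312, exact p = 0.159). Pooled IC_A shares were 2.11% and 3.15%, a difference of -1.04 points with an exact p of 0.0556 over permuted libraries. The bicarbonate-secreting intercalated cells (IC_B) had means of 1.48% ± 0.623 and 2.12% ± 0.944, a difference of -0.637 points (-1.90 to 0.578, exact p = 0.230). With LOH nuclei set aside the IC_A difference was -0.497 points (exact p = 0.167) and the IC_B difference -0.526 points (exact p = 0.421). With all nuclei, the differences of DCT, IC_A and IC_B stayed negative without any 1 library, but their sizes moved. The DCT difference ran from -2.96 points without RK6.1.New to -0.990 without RK9.1.Old.MO. For IC_A the range was -0.752 (without RK4.1) to -0.305 (without RK6.1.New), and for IC_B it was -0.913 (without RK7.1) to -0.342 (without RK8.2).

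Summed over these 4 types, the distal nephron made up 21.0% of RK2.2.New, 12.1% of RK7.1, 11.7% of RK7.2, 20.6% of RK8.2 and 24.9% of RK9.1.Old.MO. With spironolactone it made up 11.6% of RK4.1, 7.85% of RK4.2, 15.8% of RK5.1.Old.MO, 12.3% of RK6.1 and 20.0% of RK6.1.New. With all nuclei, all 5 spironolactone libraries lay below the DOCA median of 20.6%, and 2 lay below the DOCA minimum. The sum was not computed with LOH nuclei set aside, and RK6.1.New held 32.7% LOH nuclei. Among its nuclei other than LOH, DCT (14.7%) lay above the DOCA maximum (11.5%). PC (9.39%) and IC_B (3.42%) lay above the DOCA medians (7.12% and 2.28%), and IC_A (2.24%) lay below the DOCA minimum (2.58%). The difference of -4.57 points (-12.9 to 3.92) did not pass (exact p = 0.183). It was between -6.20 (without RK6.1.New) and -2.85 points (without RK9.1.Old.MO) when 1 library was left out. The ratios inside the collecting duct did not pass either. PC made up 51.0% ± 9.14 and 52.5% ± 8.25 of PC plus intercalated nuclei (exact p = 0.762), and IC_A made up 62.6% ± 15.7 and 60.4% ± 8.46 of intercalated nuclei (SD, n = 5 each, exact p = 0.802). Both ratios changed direction without single libraries, PC between -4.39 and 1.37 points and IC_A between -1.67 and 7.99 points.

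Proliferating tubule nuclei (Prolif_Tubule), a label for tubule cells with a cell cycle profile, were rare in all libraries. They made up 1.71% of RK2.2.New, 0.958% of RK7.1, 1.10% of RK7.2, 1.53% of RK8.2 and 0.936% of RK9.1.Old.MO. With spironolactone they made up 1.05% of RK4.1, 1.06% of RK4.2, 0.921% of RK5.1.Old.MO, 0.632% of RK6.1 and 0.733% of RK6.1.New. All 5 spironolactone libraries lay below the DOCA median of 1.10%, and 3 lay below the DOCA minimum. RK4.1 had 8 such nuclei, with an exact 95% interval of 0.456% to 2.07%. The means were 0.880% ± 0.192 and 1.25% ± 0.351 (SD, n = 5 each), a difference of -0.366 points (-0.797 to 0.0441, exact p = 0.0873, adjusted p = 0.698). Without RK7.1 or without RK9.1.Old.MO the unadjusted exact p was 0.0397, with differences of -0.438 and -0.444 points, and without RK2.2.New the difference was -0.251 points. Among nuclei other than LOH it was -0.348 points (exact p = 0.167), and only 1 spironolactone library lay below the DOCA minimum. The control libraries held 0% to 0.495%.

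**Figure D4:**
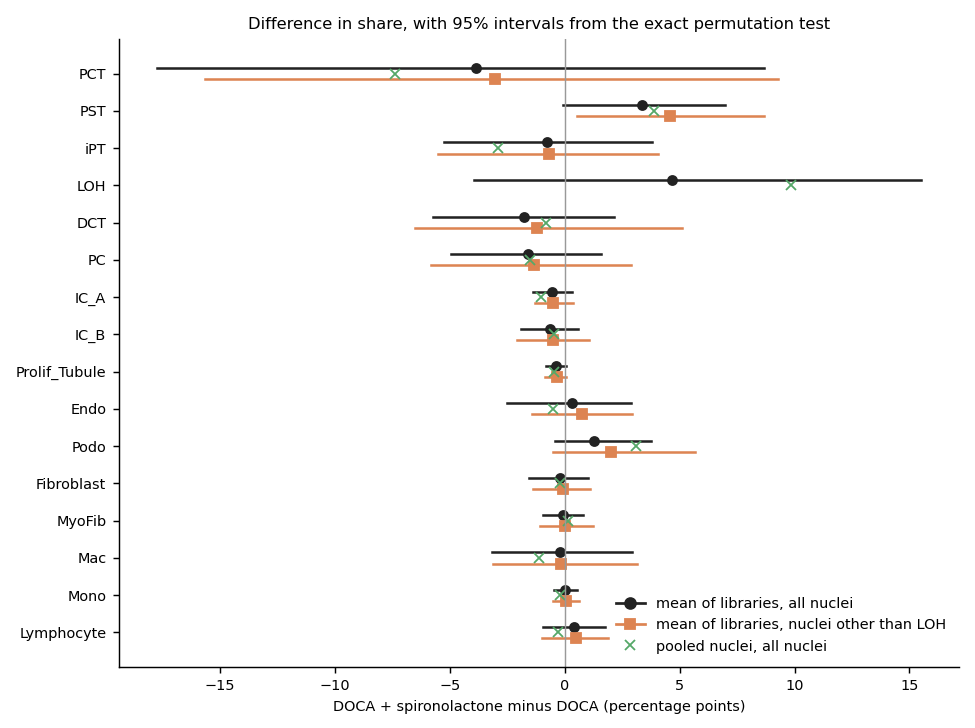
Difference in share between DOCA + spironolactone and DOCA (percentage points) for each type, with bars for the 95% interval from inverting the exact permutation test over 5 libraries against 5. With all nuclei every interval includes 0, and with nuclei other than LOH the PST interval of 0.549 to 8.65 does not.

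Endothelial nuclei (Endo) made up 8.59% ± 2.17 with spironolactone and 8.27% ± 1.48 with DOCA alone (SD, n = 5 each). The difference was 0.317 points (-2.53 to 2.88, exact p = 0.786). It was negative without RK4.1 (-0.0389), RK4.2 (-0.0848) or RK9.1.Old.MO (-0.218), and 1.23 points without RK6.1.New. Podocytes (Podo) are the epithelial cells of the glomerular filter. With DOCA alone they made up 0.534% of RK2.2.New, 0.395% of RK7.1, 0.310% of RK7.2, 0.843% of RK8.2 and 0.560% of RK9.1.Old.MO. With spironolactone they made up 0.132% of RK4.1, 0.281% of RK4.2, 0.573% of RK5.1.Old.MO, 0.382% of RK6.1 and 7.68% of RK6.1.New. RK6.1.New thus had 2586 podocyte nuclei and RK4.1 had 1. The mean of 1.81% ± 3.28 against 0.528% ± 0.204 gave a difference of 1.28 points (-0.445 to 3.77, exact p = 0.897). Without RK6.1.New the difference was -0.186 points (exact p = 0.214). Endo and Podo nuclei together made up 10.4% ± 1.37 and 8.80% ± 1.37, a difference of 1.60 points (-0.273 to 3.76, exact p = 0.0873). The unadjusted exact p of this sum was 0.0397 without RK7.1 (1.99 points) and 0.0476 without RK5.1.Old.MO (1.97 points). Without RK6.1.New the sum differed by 1.05 points (exact p = 0.206), and between the untagged libraries by 0.681 points (exact p = 0.300). Podo made up 60.9% of Endo plus Podo nuclei in RK6.1.New and at most 9.89% in any of the other 9 libraries.

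Neither type of stromal nuclei, the matrix-producing cells of the interstitium, passed the test. Fibroblast nuclei made up 2.51% ± 0.673 with spironolactone and 2.71% ± 1.02 with DOCA alone (SD, n = 5 each). Their difference of -0.197 points (-1.57 to 0.992, exact p = 0.754) was 0.228 points without RK8.2. Myofibroblasts (MyoFib) made up 0.594% ± 0.650 and 0.687% ± 0.672, a difference of -0.0931 points (-0.937 to 0.798, exact p = 0.611). In both groups this mean rested on the New-tagged library. MyoFib made up 1.86% of RK2.2.New and 1.74% of RK6.1.New, against 0.161% to 0.506% of the other 8 libraries. Leaving out RK2.2.New gave a difference of 0.201 points, leaving out RK6.1.New gave -0.380 points, and leaving out RK6.1 gave 0.00586 points. Without both New-tagged libraries the means were 0.307% with spironolactone and 0.393% with DOCA alone (exact p = 0.457).

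None of the 3 leukocyte types, the cells of the infiltrate, passed the test. Macrophages, monocytes and lymphocytes together made up 6.59% ± 3.55 with spironolactone and 6.38% ± 2.45 with DOCA alone (SD, n = 5 each). The difference of 0.207 points (-4.37 to 4.90, exact p = 0.921) changed direction without RK2.2.New (-0.818), RK4.1 (-0.0881), RK4.2 (-0.932) or RK6.1 (-0.0808). The control libraries had a mean of 2.20% (1.34% to 3.82%), and no test against them was made. Macrophages (Mac) had means of 3.84% ± 2.12 and 4.06% ± 1.78, a difference of -0.224 points (-3.14 to 2.91, exact p = 0.865). Monocytes (Mono) had means of 0.758% ± 0.361 and 0.731% ± 0.329, a difference of 0.0269 points (-0.489 to 0.551, exact p = 0.881). Both of these changed direction when single libraries were left out, Mac between -0.948 and 0.5004 points and Mono between -0.119 and 0.164 points.

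Lymphocytes, the cells of adaptive immunity in the infiltrate, made up 0.639% of RK2.2.New, 1.30% of RK7.1, 2.24% of RK7.2, 1.67% of RK8.2 and 2.11% of RK9.1.Old.MO. With spironolactone they made up 2.37% of RK4.1, 3.37% of RK4.2, 1.37% of RK5.1.Old.MO, 2.37% of RK6.1 and 0.493% of RK6.1.New. With all nuclei, 3 of the spironolactone libraries lay above all DOCA libraries and 1 lay below. The means were 2.00% ± 1.10 and 1.59% ± 0.649, a difference of 0.404 points (-0.962 to 1.73, exact p = 0.484). It was 0.0600 points without RK4.2 and 0.780 points without RK6.1.New. Among nuclei other than LOH it was 0.473 points (exact p = 0.421), and no spironolactone library lay below the DOCA libraries. Lymphocytes were described in each library after their values were seen, since the tagged and untagged libraries went in opposite directions. This was not particular to them. With all nuclei, iPT, Endo, Podo, Fibroblast, Mac and Mono also had opposite directions in the tagged and the untagged libraries. Among the 3 untagged libraries per group the lymphocyte difference was 0.970 points without overlap (exact p = 0.100, the smallest this design allows). No other of the 16 types was without overlap there. Among the 2 tagged libraries per group it was -0.444 points (exact p = 0.667). As a part of the leukocytes, lymphocytes made up 29.7% ± 2.02 and 25.5% ± 5.49 (SD, n = 5 each, exact p = 0.127), and the difference of 4.18 points was 5.71 without RK7.2 (exact p = 0.0317) and 2.02 without RK7.1 (exact p = 0.246). Macrophages made up 57.0% ± 4.06 and 61.9% ± 9.01 of the leukocytes (exact p = 0.317), a difference of -4.86 points that was -7.59 without RK2.2.New and -1.59 without RK7.1.

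Over all 5 sums and 9 ratios of types, 0 of 14 had an unadjusted exact p under 0.05 (0% called), and 0 passed after adjustment. The smallest p was 0.0873, that of the glomerular and vascular sum, with an adjusted p of 0.511. In none of the 14 did the libraries of the groups lie apart.

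The whole composition was compared by the Aitchison distance, the Euclidean distance between centred log2 ratios of the 16 counts. Libraries of different groups lay 3.58 apart on average and libraries of the same group 3.77. The difference of -0.197 was in the direction opposite to a separation of the groups (one-sided exact p = 0.770). The Bray-Curtis distance of the shares gave -0.0137 (one-sided exact p = 0.841). The nearest library by Aitchison distance belonged to the other group for 9 of the 10 libraries, and by Bray-Curtis distance for 5 of the 10. For each library, 5 of the 9 others were of the other group, and these counts were not tested. The closest pair was RK7.2 of the DOCA group and RK6.1 of the DOCA plus spironolactone group, at an Aitchison distance of 1.08. RK6.1.New was the farthest from the rest, with a mean distance of 6.63, followed by RK2.2.New with 4.40. The other 8 libraries had mean distances of 2.92 to 3.83. Although RK6.1 shares its number with RK6.1.New, the library nearest to RK6.1.New was RK2.2.New of the other group, at 4.79. Without both New-tagged libraries the difference of distances was -0.0532 (one-sided exact p = 0.514), and without RK5.1.Old.MO it was 0.0271.

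**Figure D5:**
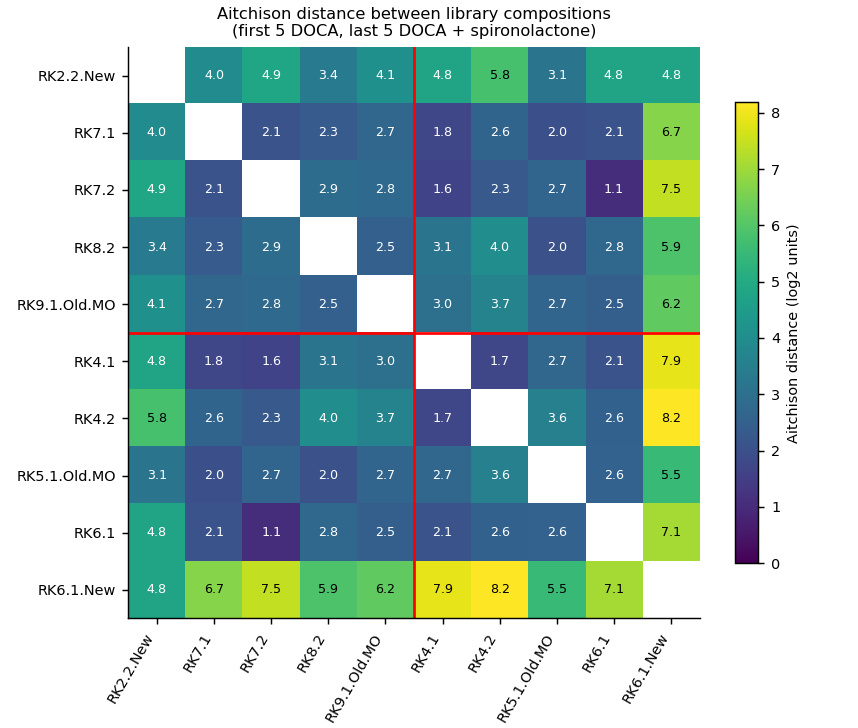
Aitchison distance (log2 units) between the compositions of every pair of the 10 libraries, with red lines between the DOCA libraries (first 5) and the DOCA + spironolactone libraries (last 5). The row of RK6.1.New has the largest distances (mean 6.63), and the closest pair at 1.08 crosses the red lines.

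The place of the iPT nuclei on the deposited UMAP, a map that puts nuclei of like expression near each other, was also compared. The authors made the types and the map from the same expression data, so same-type neighbours are frequent by construction. Neighbours were drawn from the libraries of both groups, so this comparison is not an independent readout of the composition. Among the 30 nearest nuclei of each iPT nucleus, 93.6% ± 3.17 were iPT with spironolactone and 93.0% ± 3.68 with DOCA alone (SD, n = 5 each). The difference was 0.592 points (-3.81 to 5.26, exact p = 0.754). It was -0.823 points without RK6.1.New and -0.366 points without RK7.1. The New-tagged library stood apart in each group, with 99.1% in RK2.2.New and 99.3% in RK6.1.New against 89.2% to 92.7% in the other 8 libraries. Of the neighbours that were PST or PCT, PST made up 35.7% ± 8.05 and 37.8% ± 14.6 (exact p = 0.833). This difference of -2.14 points became 1.81 points without RK2.2.New and 1.69 points without RK7.1. For each of the 16 types, the share of neighbours of the same type was also compared. By the exact permutation test 0 of 16 types had an unadjusted p under 0.05 (0% called), with a smallest p of 0.198 for DCT and an adjusted p of 0.913.

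The New-tagged libraries RK2.2.New and RK6.1.New, 1 in each group, were alike in 4 types and far apart in others. Both lay below the other 8 libraries in iPT, with 4.64% and 2.92% against 6.18% to 11.5%. Both lay below them in Mac, with 1.16% and 0.941% against 2.57% to 6.43%, and in Lymphocyte, with 0.639% and 0.493% against 1.30% to 3.37%. Both lay above them in MyoFib. LOH and Podo were high in RK6.1.New only, and RK2.2.New had 0.534% podocytes. The part of the tag and of nuclei per library in these values was not tested. Nor was that of the time point (1 sample per group was taken at 3 weeks), since no library was matched to one. With all nuclei, RK6.1.New was the lowest of the 10 libraries in 7 of 16 types, and RK4.2, of the same group, was the highest in 5. With LOH nuclei set aside, RK6.1.New was the lowest in PCT, iPT and IC_A, but no longer in Endo, Mac, Mono and Lymphocyte.

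Cell barcodes present in more than 1 library were counted. Across the 45 pairs, the median number of shared barcodes was 4. The MO-tagged libraries RK9.1.Old.MO and RK5.1.Old.MO, of different groups, shared 473, which is 3.12% of the barcodes of the smaller library. Of these, 15.6% had the same type in both libraries, against 12.98% expected from the types of all nuclei in each. The next pair, RK2.2.New and RK6.1.New, shared 161. Neither MO-tagged library shared more than 2 barcodes with a library without that tag. The cause of these overlaps was not tested.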

How the data were processed

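The authors sequenced nuclei of whole kidney with droplet kits, aligned the reads to the rat genome (rn6 and Cell Ranger 3.0.2 or 6.0.1, per the submitters' processing notes) and counted introns. Ambient transcripts were subtracted by SoupX and doublets were called by DoubletFinder. Merging, filtering by genes and mitochondrial percentage, Harmony correction, clustering and naming from markers followed in Seurat (4.0.1 in the same notes). The authors' annotation gives the library, treatment and type as names, and their deposited UMAP positions were treated as a score, since they have no unit. Both files hold nuclei after these filters.

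Nuclei were counted per library and type with Python 3.11.15, pandas 2.3.3 and scipy 1.17.1. Group differences of equal-weight mean shares were tested with exact two-sided permutation tests over libraries, with Benjamini-Hochberg adjustment over 16, 15 or 14 values. Intervals of differences invert the same test. The treatment of a library is that of the annotation, whose library numbers per treatment equal the sample numbers. Log ratios used 0.5 added to each count. Neighbours on the UMAP were the 30 nearest nuclei among the 10 libraries. Exact 95% intervals of single shares cover counting error only. The code was tested on simulated counts. Types described in every library were LOH, PCT, PST, iPT and PC and any type past the test, and Prolif_Tubule, Podo and Lymphocyte were added after their values were seen. The libraries, sums and ratios were chosen with earlier results of these data known. Alternatives were pooled nuclei, other denominators, log ratios, medians, and leaving out libraries by name tag, size or singly. Nuclei of 1 library are not replicates, so no test took nuclei as replicates.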

Additional observations from a re-analysis of the deposited data

Results flagged for a closer look

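In each group of 5 libraries and each of the 16 types, the highest and the lowest library were compared with the rest of their group. Of the 32 groups of values, 4 held a library whose gap to the nearest other library was more than 0.71 of the whole range. Chance alone gives about 1 in 20 such cases when the values are independent and normally distributed. The shares of 1 library depend on each other, so that rate need not hold here.

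The LOH share of RK6.1.New was 32.7%, with a gap of 0.832 of the range of the DOCA plus spironolactone libraries. The Podo share of the same library was 7.68%, with a gap of 0.941 of the range. The MyoFib share was 1.86% in RK2.2.New among the DOCA libraries, with a gap of 0.797 of the range. The MyoFib share was 1.74% in RK6.1.New among the DOCA plus spironolactone libraries, with a gap of 0.824 of the range. All 4 values came from the libraries with a New tag in their names.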

How the results depend on the processing

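Of 670 values recomputed under the alternatives, 537 kept their direction and their side of the threshold, 87 changed direction, 24 came to an unadjusted exact p under 0.05 or a higher count, and 22 lost it or came to a lower count. The cause was not tested where no construction shows it. No paired analysis was possible because the library names carry no replicate number of the labels, so a replicate block and the values without the 3-week libraries were not run. Groups of 3 or 2 libraries cannot reach a p under 0.05 (smallest exact p 0.100 and 0.333). The setting without libraries of more than 30000 nuclei removed only RK6.1.New, and that without libraries of fewer than 1000 only RK4.1. These settings repeat the values with that library left out, so the 670 values are not all separate checks.

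The number of types with an unadjusted exact p under 0.05, 0 of 16 in the main comparison, was 1 with nuclei other than LOH, 2 (PST and Prolif_Tubule) with medians over libraries, 1 (PST) without libraries of more than 30000 nuclei, and 0 to 1 without single libraries. The count among nuclei other than LOH, 1 (PST), was 0 with pooled nuclei, 0 with medians, 0 when permuted within tagged and untagged libraries, 0 without the MO-tagged libraries, 0 among tagged and 0 among untagged libraries, 0 without the New-tagged libraries, and 0 to 2 without single libraries. The count among sums and ratios, 0 of 14, was 0 to 1 without single libraries. The PST share of nuclei other than LOH had differences of 1.86 to 8.68 points under these settings, all positive.

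The following differences (points) changed direction. With pooled nuclei they were -0.530 for Endo, 0.159 for MyoFib, -0.215 for Mono, -0.273 for Lymphocyte, -1.62 for the immune sum, -4.33 for IC_A of intercalated nuclei, 1.78 for PC of collecting duct nuclei and 5.06 for MyoFib of stroma. With nuclei other than LOH the difference was 0.0251 for MyoFib, and as a centred log2 ratio it was 0.0321 for Fibroblast. With medians they were 0.158 for iPT, -0.151 for Podo, 0.351 for Fibroblast and 0.527 for Mac. Without the MO-tagged libraries they were 0.336 for iPT, -0.151 for Endo, 0.393 for Mac and 1.17 for iPT of proximal tubule. Among tagged libraries they were -0.605 for Endo, 0.338 for Fibroblast, -0.420 for Mono, -0.444 for Lymphocyte, 0.285 for stroma, -2.32 for the immune sum, -4.90 for IC_A of intercalated nuclei and 1.53 for PC of collecting duct nuclei. Among untagged libraries they were 1.02 for iPT, -0.251 for Podo, 0.599 for Mac, 1.34 for the proximal tubule, 1.18 for iPT of proximal tubule and -3.03 for Podo of Podo plus Endo. Without libraries of more than 30000 nuclei they were 0.481 for PCT, 0.295 for iPT, -0.109 for LOH, -0.186 for Podo and 0.5004 for Mac. Without libraries of fewer than 1000 nuclei the difference was -0.0389 for Endo. Without the New-tagged libraries, an alternative chosen after seeing the data, they were 0.782 for PCT, -0.185 for Podo, 3.98 for the proximal tubule and -2.75 for Podo of Podo plus Endo.

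Leaving out 1 library at a time gave ranges that cross 0 for PCT (-6.68 to 0.481), iPT (-1.85 to 0.295), LOH (-0.109 to 6.43), Endo (-0.218 to 1.23), Podo (-0.186 to 1.70), Fibroblast (-0.432 to 0.228), MyoFib (-0.380 to 0.201), Mac (-0.948 to 0.5004) and Mono (-0.119 to 0.164). Among sums and ratios they were the proximal tubule (-3.76 to 4.63), stroma (-0.657 to 0.0898), the immune sum (-0.932 to 1.38), iPT of proximal tubule (-3.72 to 0.591), IC_A of intercalated nuclei (-1.67 to 7.99), PC of collecting duct nuclei (-4.39 to 1.37), MyoFib of stroma (-8.51 to 5.28) and Podo of Podo plus Endo (-2.69 to 12.2). The Aitchison difference ranged from -0.444 to 0.0271, the iPT part of iPT neighbours from -0.823 to 2.12 and the PST part from -5.87 to 1.81. The differences of PST (2.13 to 4.27), DCT (-2.96 to -0.990), PC (-2.36 to -0.722), IC_A (-0.752 to -0.305), IC_B (-0.913 to -0.342), Prolif_Tubule (-0.444 to -0.251) and Lymphocyte (0.0600 to 0.780) kept their direction whichever single library was left out, but not their size.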
